A study of Rattus norvegicus with 24 samples.

Results

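Cytochrome P450 families 1 to 4 were followed in rat liver as the set of all array probes whose gene name begins with Cyp1, Cyp2, Cyp3 or Cyp4 and a letter. The set held 74 probes for 59 gene names, out of 30367 probes and 26278 names on the array. The study fed male Wistar rats, 6 months old at the start, a purified AIN76A-based diet for 12 weeks, with starch and dextrin making up the carbohydrate, and took the liver at 9 months of age. LowCu30 rats received under 0.3 mg of copper per kg and 30% sucrose. AdCu30 rats received 125 mg of copper per kg, a level the labels call both adequate and high, and 30% sucrose. LowCu10 rats received under 0.3 mg of copper per kg and 10% sucrose. AdCu10 rats, the controls, received 125 mg of copper per kg and 10% sucrose on the same purified base. Each diet had 6 rats and each rat had 1 one-colour Agilent array, so all 24 arrays are single animals.

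P450s are heme enzymes of the endoplasmic reticulum that insert an oxygen atom into drugs, steroids, bile acids and fatty acids, with electrons delivered by P450 reductase and cytochrome b5. The liver holds most of the body's drug-metabolising P450, above all in hepatocytes near the central vein. Family 1 answers to the aryl hydrocarbon receptor, Cyp2b genes to the constitutive androstane receptor, Cyp3a genes to the pregnane X receptor and Cyp4a genes to the fatty acid receptor PPAR alpha. In rats many Cyp2c and Cyp3a genes also differ between the sexes under the pattern of growth hormone release, and inflammation is known to lower many hepatic P450 mRNAs.

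Levels are log2 signals relative to the 75th percentile of the same array, so a level of 0 equals that percentile and a difference of 1 is a doubling. A gene was tested if its probe stood well above background on at least 6 arrays. This left 52 of the 59 genes, with 2 of 3 in family 1, 29 of 34 in family 2, 7 of 7 in family 3 and 14 of 15 in family 4. Of these 52, 48 were above background in all 24 rats. The untested members were Cyp1b1 and Cyp2j10, above background on 3 arrays each, Cyp2j16, Cyp2a3, Cyp2g1 and Cyp4x1 on 1 array each, and Cyp2b21 on none. No member spot was saturated. Over the 24 rats the median SD of a tested P450 gene was 0.43, beside 0.34 over all 18641 genes tested.

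The 75th percentile signal lay between 433 and 1284 units over the arrays, and 59.9 to 73.4% of probes were above background. The arrays sat on 3 slides. Slide 1 carried the 6 LowCu30 rats with AdCu30 rats 1 and 2, slide 2 carried AdCu30 rats 3 to 6 with LowCu10 rats 1 to 4, and slide 3 carried LowCu10 rats 5 and 6 with the 6 AdCu10 rats. AdCu30 and AdCu10 rats share no slide, and LowCu30 rats share none with AdCu10 or LowCu10 rats. The comparisons are also given with the slide as a block, which reaches these pairs only indirectly, through other diets. Hepatocyte markers were at like levels in all diets, with a mean over 9 genes between 6.76 and 7.32 in LowCu30, 6.83 and 7.63 in AdCu30, 7.04 and 7.44 in LowCu10 and 7.06 and 7.68 in AdCu10 rats. In whole liver, fewer cells of a type and less RNA per cell cannot be told apart.

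AdCu30 rat 5 and LowCu10 rat 2 stood apart from the other 22 rats. Rat 5 of AdCu30 had the lowest level of all 24 rats in 14 of the 52 P450 genes and rat 2 of LowCu10 in 11, and the next most frequent, LowCu10 rat 6, in 5. The median P450 level was 2.38 in AdCu30 rat 5 and 2.41 in LowCu10 rat 2, while the other 22 rats lay between 2.63 and 3.26. The mean of 11 acute phase genes, liver proteins made in inflammation, was 6.25 and 5.60 in these rats and at most 4.22 in the others. The mean of 7 neutrophil markers was 0.49 and -0.57 in them and at most -1.85 in the others. Both rats were kept, the counts of calls are given with and without them, and the part of inflammation in any P450 value was not tested.

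**Figure D1:**
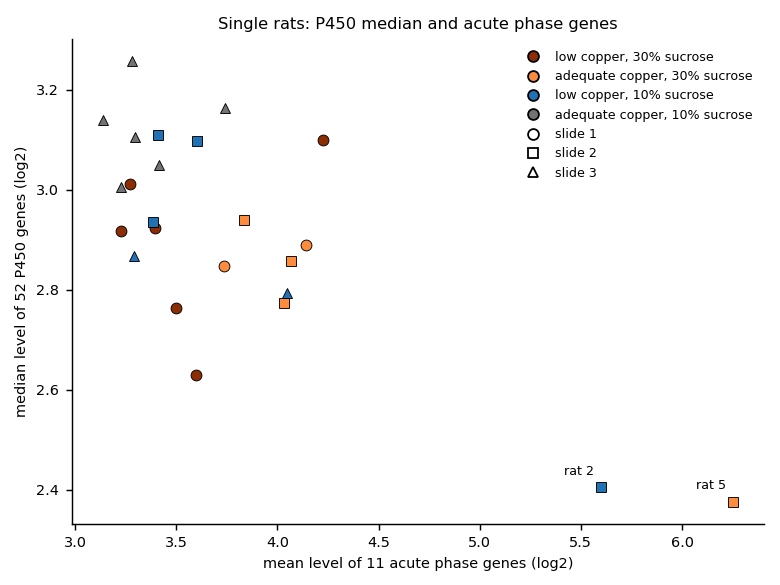
Median log2 level of the 52 P450 genes (vertical axis) against the mean log2 level of 11 acute phase genes (horizontal axis) for 24 rats, coloured by diet, with the marker giving the slide. AdCu30 rat 5 and LowCu10 rat 2 lie apart at the lower right, with P450 medians of 2.38 and 2.41, and the other rats lie between 2.63 and 3.26.

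Sequences help in reading 2 groups of members. Neighbouring Cyp2 genes are close relatives, so a probe of 60 bases may pick up more than 1 mRNA. These Cyp2c and Cyp2a probes, shown because Cyp2c6v1 is among the genes that changed and the Cyp2c7 and Cyp2a genes are not, are given 5′ to 3′ in the positions of the scanner files (build rn4), with capitals marking the bases at which the 2 aligned probes of a pair differ.
Cyp2c7, chr1:243702789-243702848, minus strand: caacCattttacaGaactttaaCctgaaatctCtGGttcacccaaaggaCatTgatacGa
Cyp2c6v1, chr1:243895748-243895807, plus strand: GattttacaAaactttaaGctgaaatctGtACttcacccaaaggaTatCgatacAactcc
Cyp2a2, chr1:82063430-82063489, plus strand: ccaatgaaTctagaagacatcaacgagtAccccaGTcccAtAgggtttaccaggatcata
Cyp2a1, chr1:82019991-82020050, plus strand: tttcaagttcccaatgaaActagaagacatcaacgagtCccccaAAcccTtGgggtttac
The Cyp2c7 and Cyp2c6v1 probes share 47 of 56 aligned bases, and the correlation of their levels over the 24 rats was -0.25. This Cyp2c7 probe is not the one that stands for the gene in the tests. The Cyp2a2 and Cyp2a1 probes share 44 of 50 aligned bases, with a correlation of 0.17. The probes of Cyp2d5 and Cyp2d1 share 56 of 58 aligned bases, so these 2 genes are not resolved here and their values should be read as 1 measurement.

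The second group is Cyp3a, the main drug-metabolising P450s, in which the copper difference at 30% sucrose minus that at 10% sucrose, the interaction, was above 0 in 6 of 7 genes. The pregnane X receptor, bound to its partner RXR, is known to recognise 2 copies of AGTTCA spaced by 3 bases. Searching both strands of the 250 bases before each gene start in RefSeq (build GRCr8) for AGTTCA, any 3 bases and AGTTCA again found the repeat in 2 of 33469 promoters (0.00598%), and these were the promoters of Cyp3a2 and Cyp3a23-3a1, the current symbol of the array's Cyp3a23/3a1. They are printed 5′ to 3′ on the strand of the gene, beside those of Cyp3a18 and Cyp3a9, whose interaction passed the test, with capitals marking the spaced repeat or the single copies of AGTTCA on either strand.
Cyp3a2, chr12:14343858-14344107, minus strand: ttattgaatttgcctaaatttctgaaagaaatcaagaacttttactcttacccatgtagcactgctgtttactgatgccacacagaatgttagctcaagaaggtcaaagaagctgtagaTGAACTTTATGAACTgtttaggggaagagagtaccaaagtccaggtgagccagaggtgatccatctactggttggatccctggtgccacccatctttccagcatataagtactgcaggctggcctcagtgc
Cyp3a23-3a1, chr12:14398804-14399053, minus strand: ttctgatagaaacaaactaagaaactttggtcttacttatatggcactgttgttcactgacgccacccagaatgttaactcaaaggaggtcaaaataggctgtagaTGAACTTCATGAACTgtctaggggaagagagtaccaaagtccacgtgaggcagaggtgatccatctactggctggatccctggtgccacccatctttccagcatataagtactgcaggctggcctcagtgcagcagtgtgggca
Cyp3a18, chr12:13994062-13994311, plus strand: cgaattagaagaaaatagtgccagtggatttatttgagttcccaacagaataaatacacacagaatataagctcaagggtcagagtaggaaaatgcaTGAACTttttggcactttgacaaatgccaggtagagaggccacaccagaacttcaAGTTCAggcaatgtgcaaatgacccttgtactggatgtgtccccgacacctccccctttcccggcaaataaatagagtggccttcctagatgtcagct
Cyp3a9, chr12:21960161-21960410, minus strand: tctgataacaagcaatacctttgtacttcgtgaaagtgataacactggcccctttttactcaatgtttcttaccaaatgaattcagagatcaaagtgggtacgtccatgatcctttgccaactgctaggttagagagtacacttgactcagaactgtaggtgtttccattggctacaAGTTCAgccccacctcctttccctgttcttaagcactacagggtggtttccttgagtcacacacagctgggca
The repeat reads TGAACTTTATGAACT in Cyp3a2, starting 131 bases before the gene start, and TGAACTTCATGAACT in Cyp3a23-3a1, starting 144 bases before it. The 2 windows match at 165 of 237 bases when shifted by 13. Of the 59 members, 49 had a promoter in the table, and 12 of the 49 held at least 1 AGTTCA, beside 12.2% of all promoters. The dioxin response core GCGTG was in 12 of the 49 and in 25.9% of all promoters. A match describes letters only and is no measure of binding.

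The first comparison sets 30% against 10% sucrose at adequate copper. All AdCu30 rats were on slides 1 and 2 and all AdCu10 rats on slide 3. In this comparison diet and slide therefore cannot be told apart. In AdCu30 rats against AdCu10 rats, 6 P450 genes rose (Cyp2b12, Cyp4f18, Cyp2c79, Cyp2w1, Cyp3a62 and Cyp2c6v1) and 5 fell (Cyp2d3, Cyp2d2, Cyp2d4, Cyp2b2 and Cyp4f4). Together they are 11 of 52, or 21.2%, beside 20.9% of all genes tested, so the share of changed P450 genes was near the background. By direction, 6 of 52 rose where 18.4% of all genes did, and 5 of 52 fell where 2.48% of all genes did. The median difference of the 52 genes was -0.24, with 35 below 0, and that of all genes was 0.07. The Cyp3a median was -0.40, and -0.14 without AdCu30 rat 5 and LowCu10 rat 2.

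The rising and falling members lay at different signal strengths. Among the 6214 tested genes with the lowest mean signal, 35.5% rose and 0.933% fell, and the P450 genes there counted 4 risers of 8 and no faller. These 4 were Cyp2b12, Cyp4f18, Cyp2c79 and Cyp2w1. Among the 6214 genes with the highest mean signal, 2.82% rose and 3.99% fell, and of the 36 P450 genes there 2 rose and 5 fell. The median difference of those 36 was -0.35, beside -0.03 for all genes of that range. The part of signal strength in these calls was not tested.

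**Figure D2:**
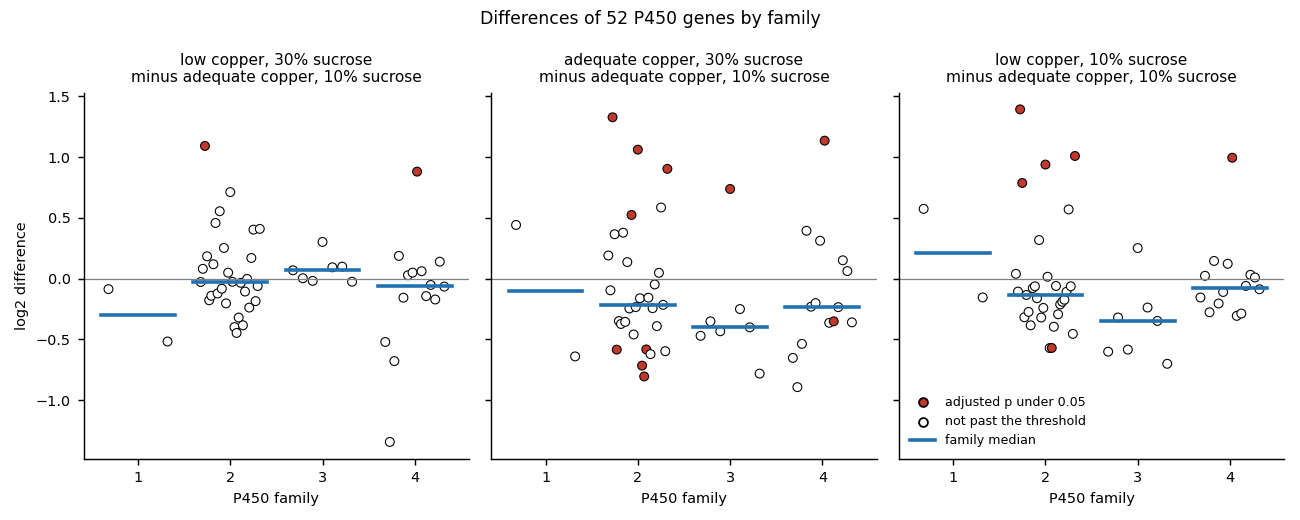
Log2 difference of each of 52 P450 genes from AdCu10 (vertical axis), by family (horizontal axis), in LowCu30, AdCu30 and LowCu10 rats. Filled points passed an adjusted p of 0.05 (2, 11 and 6 genes), and bars are family medians, which in AdCu30 were -0.10, -0.21, -0.40 and -0.23 for families 1 to 4.

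Cyp2b12, an arachidonic acid epoxygenase known from rat skin glands, had levels from -4.30 to -3.69 (median -3.94) in AdCu30 rats, against -6.11 to -4.75 (median -5.22) in AdCu10 rats. Every AdCu30 rat was above every AdCu10 rat, as in 11.9% of all genes. The difference was 1.33 ± 0.23 (SE), or 2.51-fold (limma adjusted p = 0.0011), and 5 of 6 AdCu10 rats were above background. Cyp4f18, which in mouse neutrophils oxidises leukotriene B4, ranged from -3.90 to -2.84 (median -3.39) in AdCu30 rats and from -5.03 to -4.09 (median -4.48) in AdCu10 rats. These ranges did not overlap either, and the difference was 1.14 ± 0.22 (limma adjusted p = 0.0015).

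Neutrophil markers moved in the same direction. Their list counted 5 of 7 higher in AdCu30 rats, with a median difference of 1.90 (6 of 7 were above 0 with the slide as a block). Of all genes tested 18.4% rose, and 35.5% of the 6214 with the lowest mean signal, where Cyp4f18 lies. The list mean ran from -3.20 to 0.49 in AdCu30 rats, the highest being that of rat 5, and from -4.51 to -3.95 in AdCu10 rats. Without AdCu30 rat 5 and LowCu10 rat 2 the Cyp4f18 difference was 1.12 (limma adjusted p = 0.0047). Cyp4f18 also passed in LowCu10 and LowCu30 against AdCu10 rats. There 2 of 7 neutrophil markers were higher in LowCu10 (median 1.33), beside 18% of all genes. In LowCu30 1 of 7 was higher (median 0.47), beside 1.72% of all genes. The part of neutrophils in the Cyp4f18 values was not tested.

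Cyp2w1, a P450 known in humans from fetal gut and colon tumours, ranged from -4.52 to -3.17 (median -3.99) in AdCu30 rats and from -5.65 to -4.38 (median -4.78) in AdCu10 rats. The ranges overlapped at their ends, and the difference was 0.90 ± 0.23 (limma adjusted p = 0.0071). Cyp2c79, a Cyp2c member, ranged from -3.50 to -2.59 (median -2.76) in AdCu30 rats and from -4.31 to -2.83 (median -4.10) in AdCu10 rats. A single AdCu10 rat lay high, and the difference was 1.06 ± 0.28 (limma adjusted p = 0.0087). Its difference turned to -0.13 with the slide as a block.

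Cyp3a62 and Cyp2c6v1 rose as well. Cyp3a62, known in rats from the intestine and the female liver, ranged from -0.18 to 1.03 (median 0.57) in AdCu30 rats and from -0.79 to 0.30 (median -0.28) in AdCu10 rats, a difference of 0.74 ± 0.24 (limma adjusted p = 0.031) and 0.39 with the slide as a block. Cyp2c6v1, a drug-metabolising enzyme of liver, ranged from 5.76 to 6.45 (median 6.23) in AdCu30 rats and from 5.29 to 5.91 (median 5.64) in AdCu10 rats. Its difference was 0.52 ± 0.18 (limma adjusted p = 0.039), and 0.31 with the slide as a block. In both genes the diets overlapped.

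The fallers included 3 of the 5 Cyp2d genes, a group known for oxidising amine drugs. Cyp2d3 ranged from 1.62 to 2.85 (median 2.28) in AdCu30 rats and from 2.62 to 3.34 (median 3.20) in AdCu10 rats. Only the highest AdCu30 rat reached the AdCu10 range, and the difference was -0.80 ± 0.20, 1.75 times lower in AdCu30 (limma adjusted p = 0.0062). Cyp2d2 ranged from 2.81 to 3.89 (median 3.13) in AdCu30 rats and from 3.15 to 4.43 (median 4.18) in AdCu10 rats, a difference of -0.72 ± 0.24 (limma adjusted p = 0.038). Cyp2d4, a steroid 21-hydroxylase of rat brain, ranged from 2.47 to 3.35 (median 2.98) in AdCu30 rats and from 3.18 to 3.80 (median 3.61) in AdCu10 rats. Few rats of either diet lay in the shared range, and the difference was -0.58 ± 0.16 (limma adjusted p = 0.014). The unresolved pair Cyp2d1 and Cyp2d5 differed by -0.16 each and did not pass (limma adjusted p = 0.56 and 0.58).

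Cyp2b2, the phenobarbital-inducible target of the constitutive androstane receptor, ranged from 1.18 to 2.19 (median 1.78) in AdCu30 rats and from 1.43 to 2.95 (median 2.49) in AdCu10 rats. The difference of -0.58 ± 0.21 passed narrowly (limma adjusted p = 0.0495). Cyp4f4, an eicosanoid hydroxylase, ranged from 4.25 to 4.74 (median 4.45) in AdCu30 rats and from 4.47 to 5.03 (median 4.81) in AdCu10 rats, a difference of -0.35 ± 0.12 (limma adjusted p = 0.040). Below the threshold, Cyp3a9 differed by -0.78, Cyp4a1 by -0.65, Cyp1a2 by -0.64, Cyp2e1 by -0.62 and the male-specific Cyp2c11 by -0.37.

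These calls were also fitted with the slide as a block and without single rats. AdCu30 and AdCu10 rats share no slide, so the block reaches their difference only indirectly, through LowCu10 rats, and with less precision. A call lost under the block is therefore no measure of how far it depended on the slide. With the slide as a block 0 of the 52 genes passed, and 0 of all 18641 (8 P450 genes and 4.07% of all genes at an unadjusted limma p under 0.05), while the P450 median was -0.32 with 40 of 52 genes below 0. The count was 8 without AdCu30 rat 5 and LowCu10 rat 2, 6 without AdCu30 rat 5 alone, and 7 without AdCu30 rat 1 or AdCu10 rat 1. Over all single omissions the count among all 18641 genes ran from 2933 to 4104. Whether the shifts are particular to P450 genes was not tested. Leaving out each of the 24 rats in turn, Cyp2b12, Cyp2c79, Cyp2d3, Cyp2d4, Cyp2w1 and Cyp4f18 passed every time, while Cyp2c6v1 and Cyp3a62 passed in 17 of 24 omissions, Cyp2d2 in 16, Cyp4f4 in 15 and Cyp2b2 in 5.

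**Figure D3:**
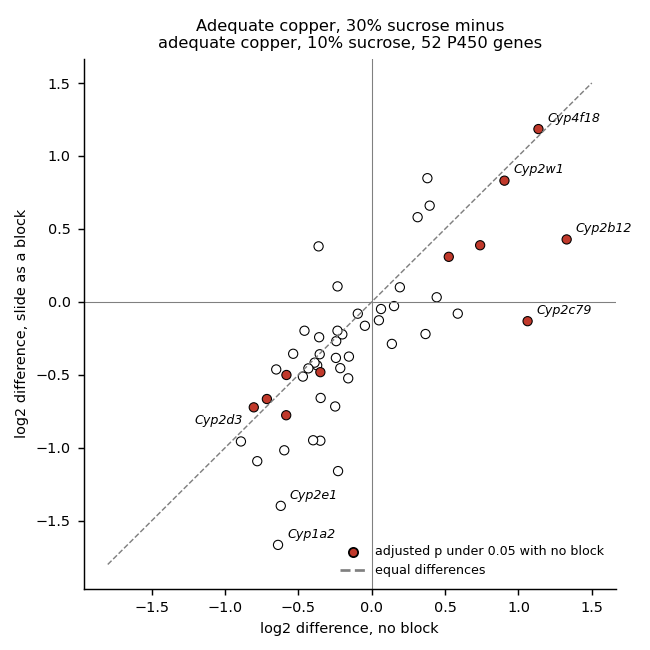
Log2 difference of AdCu30 from AdCu10 for 52 P450 genes without a block (horizontal axis) and with the slide as a block (vertical axis). Filled points are the 11 genes that passed without the block. Cyp4f18, Cyp2w1 and Cyp2d3 lie near the line of equal differences, Cyp2b12 (0.43 with the block) and Cyp2c79 (-0.13) lie below it, and Cyp1a2 and Cyp2e1 reach -1.67 and -1.40 with the block.

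Low copper at 10% sucrose was set against adequate copper at 10% sucrose in LowCu10 and AdCu10 rats. There 5 P450 genes rose (Cyp2b12, Cyp2w1, Cyp4f18, Cyp2c79 and Cyp2b15) and 1 fell (Cyp2d3). These 6 of 52 stand beside 18.6% of all genes tested, by direction 18% higher and 0.595% lower. All 5 risers were again among the 8 P450 genes of lowest mean signal, a range in which 36.5% of all genes rose. The median of the 52 genes was -0.14, with 36 below 0, beside 0.05 for all genes. This comparison uses the same AdCu10 rats as the one before, so their values are not independent.

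Cyp2b12 ranged from -4.53 to -3.36 (median -3.72) in LowCu10 rats, all above the AdCu10 rats, with a difference of 1.39 ± 0.23, or 2.63-fold (limma adjusted p = 0.00088). Cyp2w1 ranged from -4.14 to -3.49 (median -3.91) and Cyp4f18 from -3.90 to -3.24 (median -3.54) in LowCu10 rats. Both were clear of the AdCu10 range, as in 5.12% of all genes, with differences of 1.01 ± 0.23 (limma adjusted p = 0.0034) and 0.996 ± 0.22 (limma adjusted p = 0.0027). Cyp2b15, a Cyp2b relative, ranged from -3.50 to -2.04 (median -2.65) in LowCu10 rats and from -3.72 to -3.28 (median -3.55) in AdCu10 rats, a difference of 0.79 ± 0.22 (limma adjusted p = 0.013).

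Cyp2c79 ranged from -3.94 to -2.42 (median -2.73) in LowCu10 rats, and those on slide 2 lay above those on slide 3. Its difference was 0.94 ± 0.28 (limma adjusted p = 0.018) over all rats and 0.09 within slide 3, where LowCu10 rats 5 and 6 shared the slide with the AdCu10 rats. Cyp2d3 ranged from 1.71 to 2.73 (median 2.61) in LowCu10 rats, with LowCu10 rat 2 lowest, and differed from AdCu10 by -0.57 ± 0.20 (limma adjusted p = 0.047). Within slide 3 the difference was 0.78 for Cyp2b12, 0.94 for Cyp2w1, 0.93 for Cyp4f18, 0.41 for Cyp2b15 and -0.45 for Cyp2d3. Blocking by slide left 0 P450 genes past the threshold and 0 of all genes (8 P450 genes and 6.72% of all genes at an unadjusted limma p under 0.05), and without LowCu10 rat 2 and AdCu30 rat 5 the count was 4, Cyp2c79 and Cyp2d3 being lost. Over the 24 single omissions Cyp2d3 passed in 8 and Cyp2c79 in 21, and the other 4 passed in all. In these omissions the count among all genes ran from 2599 to 4264.

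**Figure D4:**
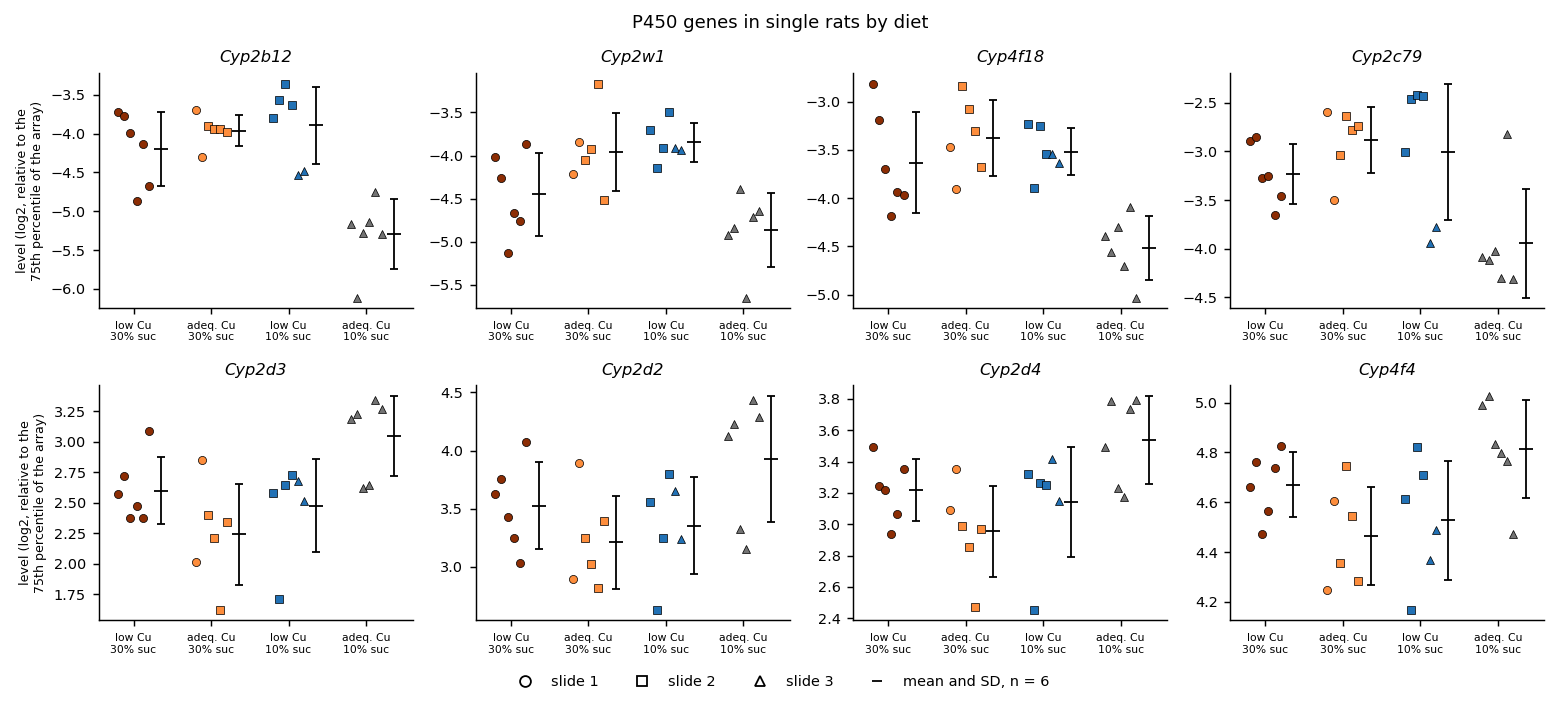
Log2 level of 8 P450 genes in single rats (vertical axis) by diet (horizontal axis), with the marker giving the slide and a bar with whiskers the mean and SD of 6 rats. Cyp2b12 and Cyp4f18 are lower in AdCu10 rats than in every AdCu30 and LowCu10 rat, and Cyp2d3 has its highest median, 3.20, in AdCu10 rats.

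With both changes at once, LowCu30 rats against AdCu10 rats, 2 P450 genes passed and both rose. They are 2 of 52, beside 1.76% of all genes tested, 1.72% higher and 0.0376% lower. Both are among the 8 P450 genes of lowest mean signal, a range in which 3.89% of all genes rose. Cyp2b12 ranged from -4.87 to -3.73 (median -4.07) in LowCu30 rats, overlapping AdCu10 at 1 end, with a difference of 1.09 ± 0.23 (limma adjusted p = 0.030). Cyp4f18 ranged from -4.19 to -2.82 (median -3.82) in LowCu30 rats, a difference of 0.88 ± 0.22 (limma adjusted p = 0.041). The median of the 52 genes was -0.02, beside 0.05 for all genes, and the median of the 7 Cyp3a genes was 0.07.

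Among genes that did not pass, Cyp4a2, a fatty acid omega-hydroxylase, had the most negative value. It ranged from 1.04 to 4.12 (median 3.25) in LowCu30 rats and from 3.70 to 5.37 (median 4.27) in AdCu10 rats, and the difference of -1.34 ± 0.67 did not pass (limma adjusted p = 0.31). LowCu30 and AdCu10 rats share no slide, so the slide block reaches their difference only indirectly, through the other diets. Under it 0 P450 genes passed and 0 of all genes (3 P450 genes and 4.54% of all genes at an unadjusted limma p under 0.05). The Cyp2b12 difference was then 0.23 and that of Cyp4f18 was 1.24. The count fell to 0 without any 1 of LowCu30 rats 1, 2, 3 and 5 or AdCu10 rats 2, 3, 4 and 6, and to 1 without AdCu10 rat 1. Over single omissions the count among all genes ran from 0 to 986. The signs of both differences were kept, with 0.93 to 1.23 for Cyp2b12 and 0.72 to 0.99 for Cyp4f18.

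Copper at 30% sucrose was tested in LowCu30 against AdCu30 rats, and sucrose at low copper in LowCu30 against LowCu10 rats. By limma 0 of 52 P450 genes passed in either, beside 0% of all genes, and 5 P450 genes in each had an unadjusted p under 0.05, beside 9.87% of all genes for copper and 9.58% for sucrose. The median of the 52 genes was 0.14 for copper, with 37 above 0, and 0.05 for sucrose, with 31 above 0. Under the slide block these medians were 0.02 and -0.21, so the sucrose median changed sign. LowCu30 and LowCu10 rats share no slide, so the block reaches the sucrose difference only indirectly, through AdCu30 rats. Cyp3a9 had a difference of 0.76 ± 0.30 in LowCu30 against AdCu30 rats (limma adjusted p = 0.47), and 0.97 within slide 1, which carried both diets. A missed threshold does not show that the diets were alike.

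The interaction asks whether low copper did something different at 30% sucrose than at 10%, and is the copper difference at 30% sucrose minus that at 10%. The interaction uses the same AdCu10 rats as the comparisons against them, so its values are not independent of theirs. It passed in 11 of 52 genes, 6 positive and 5 negative, or 21.2%, beside 20.8% of all genes, of which 1.94% were positive and 18.9% negative. The 5 negative genes, Cyp2b12, Cyp2w1, Cyp2c79, Cyp4f18 and Cyp2b15, are all among the 8 of lowest mean signal, where 36.5% of all genes were negative. The 6 positive genes were Cyp3a9, Cyp3a18, Cyp2d3, Cyp2d4, Cyp4f4 and Cyp2u1. The median over the 52 genes was 0.30, beside -0.10 over all genes. By family it was -0.41 in family 1 (only 2 genes), 0.32 in family 2, 0.85 in Cyp3a and 0.19 in family 4.

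Cyp3a9, an estrogen-hydroxylating form higher in female rats, ranged from -1.07 to 0.80 (median 0.10) in LowCu30 rats, from -1.60 to 0.03 (median -0.79) in AdCu30 rats, from -1.25 to 0.08 (median -0.86) in LowCu10 rats and from -0.27 to 0.59 (median -0.02) in AdCu10 rats. The medians of AdCu30 and LowCu10 were the lower ones, and the diets overlapped in every pair. Its interaction was 1.46 ± 0.43 (limma adjusted p = 0.018), and 1.94 with the slide as a block. Cyp3a18, a male-predominant form, ranged from 3.95 to 4.81 (median 4.45) in LowCu30, from 3.26 to 4.39 (median 3.95) in AdCu30, from 2.44 to 4.45 (median 4.03) in LowCu10 and from 3.89 to 4.84 (median 4.41) in AdCu10 rats. Its interaction was 1.14 ± 0.38 (limma adjusted p = 0.036), and LowCu10 rat 2 had the lowest level.

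The Cyp3a genes whose promoters hold the spaced repeat did not pass. Cyp3a2, the male-specific form, ranged from 6.21 to 6.80 (median 6.46) in LowCu30, from 5.06 to 6.79 (median 6.09) in AdCu30, from 5.48 to 6.54 (median 6.26) in LowCu10 and from 6.13 to 6.89 (median 6.40) in AdCu10 rats, with an interaction of 0.67 (limma adjusted p = 0.14). Cyp3a23/3a1, the form that steroid drugs induce, ranged from 4.79 to 5.16 (median 5.05), from 3.22 to 5.18 (median 4.83), from 3.39 to 4.95 (median 4.59) and from 4.26 to 5.43 (median 5.12) in the same 4 diets, with an interaction of 0.998 (limma adjusted p = 0.071), and 0.42 with the slide as a block. Its lowest rats were AdCu30 rat 5 and LowCu10 rat 2. Cyp3a73 had 0.58 and the pseudogene Cyp3a85-ps 0.85, neither past the threshold, and Cyp3a62 was the 1 member below 0, at -0.69.

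**Figure D5:**
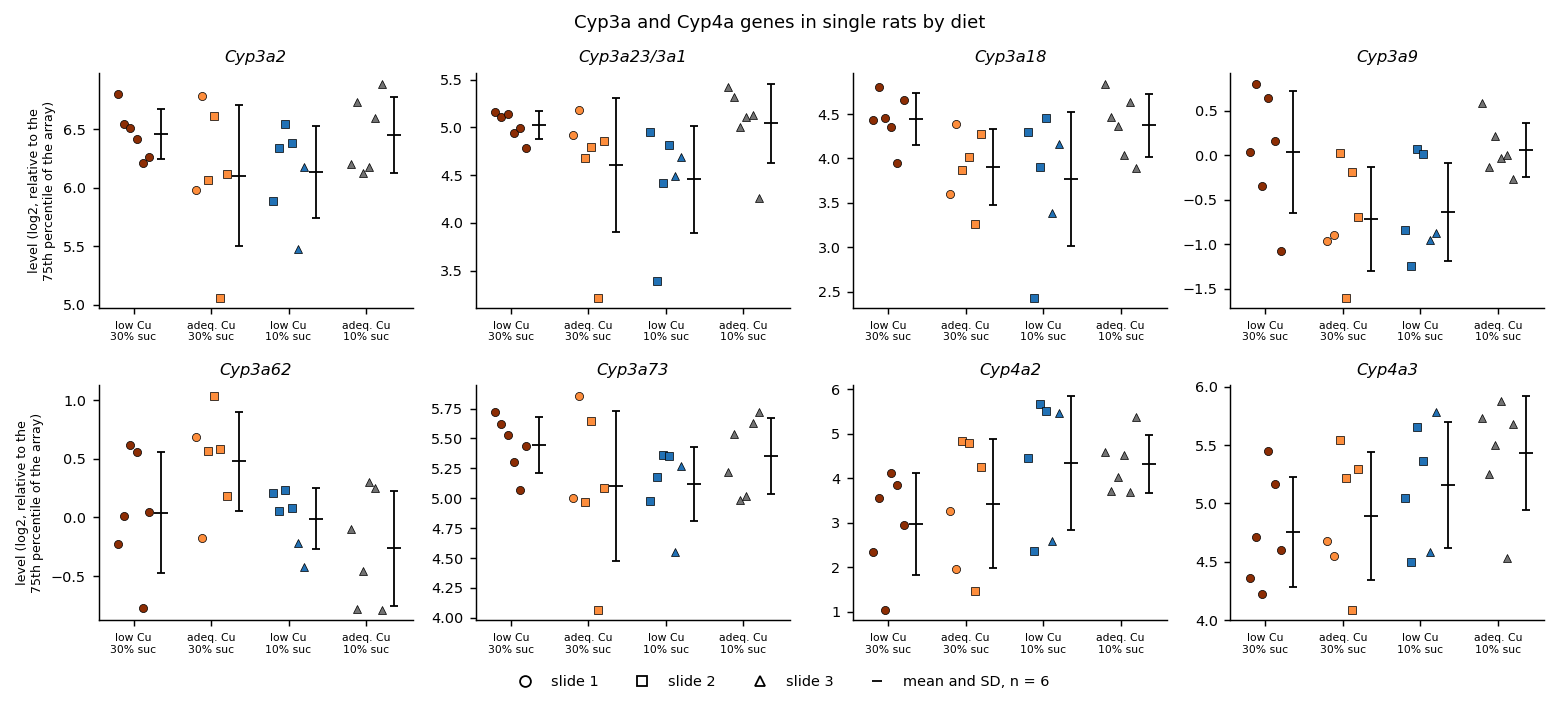
Log2 level of 6 Cyp3a and 2 Cyp4a genes in single rats (vertical axis) by diet (horizontal axis), with the marker giving the slide and a bar with whiskers the mean and SD of 6 rats. Single rats lie far below their diet, such as the AdCu30 rat at 3.22 and the LowCu10 rat at 3.39 in Cyp3a23/3a1, and Cyp4a2 spreads over 4.63 log2 units.

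The Cyp2d genes and Cyp4f4 followed with smaller values. The interaction was 0.93 ± 0.28 for Cyp2d3 (limma adjusted p = 0.021, and 0.62 with the slide as a block), 0.66 for Cyp2d4 (limma adjusted p = 0.045, and 0.25 with the slide as a block) and 0.49 ± 0.17 for Cyp4f4 (limma adjusted p = 0.040). Cyp2u1, a fatty acid hydroxylase, had 0.99 ± 0.34 (limma adjusted p = 0.042), but only 3, 1, 1 and 4 of 6 rats were above background in LowCu30, AdCu30, LowCu10 and AdCu10. The negative values were -1.63 ± 0.33 for Cyp2b12 (limma adjusted p = 0.0025), -1.50 ± 0.32 for Cyp2w1 (limma adjusted p = 0.0033), -1.29 ± 0.39 for Cyp2c79 (limma adjusted p = 0.022), -1.25 ± 0.31 for Cyp4f18 (limma adjusted p = 0.0065) and -0.97 ± 0.31 for Cyp2b15 (limma adjusted p = 0.029). Under the slide block they were -0.98 for Cyp2b12, -1.36 for Cyp2w1, -0.27 for Cyp2c79, -0.87 for Cyp4f18 and -0.61 for Cyp2b15. Neutrophil markers were negative too in the interaction, with 5 of 7 past the threshold, beside 18.9% of all genes. Their median was -2.80, or -1.45 under the slide block, and their part in the Cyp4f18 value was not tested.

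With the slide as a block 0 P450 genes passed the interaction and 10 of all genes, or 0.0536% (7 P450 genes and 13.6% of all genes at an unadjusted limma p under 0.05). The P450 median was then 0.10, with 0.32 in family 1, 0.07 in family 2, 0.70 in Cyp3a and -0.0082 in family 4, so families 1 and 4 changed sign. Family 1 is only 2 genes, and Cyp1a1 was above background on just 6 of 24 arrays. Without AdCu30 rat 5 and LowCu10 rat 2 the count was 5, namely Cyp2b12, Cyp2b15, Cyp2w1, Cyp3a9 and Cyp4f18. Among those lost were Cyp2d3 at 0.65 (limma adjusted p = 0.063) and Cyp2c79 at -1.16 (limma adjusted p = 0.064). The medians were then -0.21 in family 1, 0.19 in family 2, 0.51 in Cyp3a and -0.06 in family 4. The count was 7 without LowCu30 rat 2, LowCu30 rat 6 or AdCu10 rat 2, while the count among all genes ran from 3054 to 4828 over single omissions. Over single omissions Cyp2b15 passed in 19 of 24, Cyp3a18 in 16, Cyp4f4 in 12, Cyp2d4 in 9 and Cyp2u1 in 8, and the other 6 genes in all.

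Family 1 and the sex-specific Cyp2c genes showed no difference past the threshold in any of the 6 comparisons. Cyp1a2, an aryl hydrocarbon receptor target that oxidises caffeine, ranged from 2.86 to 4.43 (median 3.23) in LowCu30, from 2.66 to 4.63 (median 3.02) in AdCu30, from 2.90 to 4.81 (median 3.82) in LowCu10 and from 3.32 to 4.93 (median 3.81) in AdCu10 rats. Its AdCu30 minus AdCu10 difference was -0.64 ± 0.35 (limma adjusted p = 0.21) and -1.67 with the slide as a block. Cyp1a1 was above background in 1, 2, 2 and 1 of 6 rats. Male-specific Cyp2c11 had medians of 8.14, 7.71, 7.92 and 8.09, and female-specific Cyp2c12 had medians of -0.57, -0.98, -1.46 and -0.84, in LowCu30, AdCu30, LowCu10 and AdCu10 rats.

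Cyp2e1, which oxidises ethanol and acetone, ranged from 5.95 to 7.06 (median 6.48) in LowCu30, from 5.80 to 6.80 (median 6.28) in AdCu30, from 6.01 to 7.22 (median 6.51) in LowCu10 and from 6.32 to 7.38 (median 6.89) in AdCu10 rats, with overlap in every pair. The AdCu30 minus AdCu10 difference was -0.62 ± 0.25 (limma adjusted p = 0.082), and -1.40 with the slide as a block. The male-predominant Cyp2a2 and the female-predominant Cyp2a1 differed by -0.10 and 0.19 in the same comparison. The vitamin D 25-hydroxylase Cyp2r1 differed by 0.05 and the epoxygenase Cyp2c23 by -0.24, and neither passed.

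The Cyp4a genes spread widely within a diet. Cyp4a2 ranged over 4.63 log2 units across the 24 rats, from 1.47 to 4.83 (median 3.75) in AdCu30 and from 2.37 to 5.67 (median 4.96) in LowCu10 rats besides the ranges above. None of Cyp4a1, Cyp4a2, Cyp4a3 and Cyp4a8 passed in any comparison. Over the 24 rats Cyp4a2 went with Cyp4a3 (r = 0.89, rho = 0.88, permutation p = 1e-05 each, the smallest the test can give, adjusted p = 1.5e-05). Without the 2 rats farthest from the Cyp4a2 median r was 0.86, and it was 0.87, 0.96 and 0.82 within slides 1, 2 and 3. Cyp4a2 and Cyp4a1 gave r = 0.79 and rho = 0.77 (permutation p = 1e-05 each, adjusted p = 1.5e-05), 0.75 without 2 rats, and 0.65, 0.90 and 0.84 within the slides.

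In all, 6 pairs of relatives were compared in this way, chosen after their values were seen, with adjustment over the 6. Cyp3a2 and Cyp3a73 gave r = 0.97 and rho = 0.95, 0.93 without 2 rats and 0.94, 0.98 and 0.97 within the slides. The unresolved Cyp2d1 and Cyp2d5 gave r = 0.98 and rho = 0.98, 0.97 without 2 rats and 0.99, 0.98 and 0.99 within the slides. Both pairs had a permutation p of 1e-05 (adjusted p = 1.5e-05) for r and rho. For Cyp2d1 and Cyp2d5, whose probes share 56 of 58 aligned bases, a high correlation was fixed in advance and its p tests nothing. The permutation shuffled all 24 rats without regard to diet or slide. Cyp3a2 and Cyp3a23/3a1 gave r = 0.46 (permutation p = 0.0281, adjusted p = 0.0337) and rho = 0.35 (permutation p = 0.0919, adjusted p = 0.11). Their r was 0.02 without AdCu30 rat 5 and LowCu10 rat 5, so the r over all 24 rats depends on those rats. It was 0.79, 0.50 and 0.11 within slides 1, 2 and 3, and slide 1 holds neither of them. Cyp2c7 and Cyp2c6v1 gave r = -0.34 (permutation p = 0.101, adjusted p = 0.101) and rho = -0.24 (permutation p = 0.252, adjusted p = 0.252), with r = 0.11 without 2 rats and 0.43, -0.65 and -0.49 within the slides.

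The proteins that serve the P450s were read from fixed lists, in AdCu30 against AdCu10 rats. Of 6 redox partners 2 fell and all 6 values were below 0, or 5 of 6 with the slide as a block. Pgrmc1, a heme-binding protein that associates with P450s, differed by -0.43 ± 0.12 (limma adjusted p = 0.011) and Cyb5a, cytochrome b5, by -0.37 ± 0.13 (limma adjusted p = 0.0498). The reductase Por differed by -0.20 and did not pass (limma adjusted p = 0.67), with -0.87 under the slide block. The interaction passed in Pgrmc1 at 0.70 and in Cyb5a at 0.61, and was 0.35 and 0.47 under the slide block. Of 22 nuclear receptors and other regulators, 1 fell, the hepatocyte factor Cebpa, at -0.72 ± 0.24 (limma adjusted p = 0.039), and at -0.21 with the slide as a block. In this list 17 values were below 0, with the block or without it. The receptors themselves did not pass, with -0.26 for Nr1i2 (pregnane X receptor), -0.34 for Nr1i3 (constitutive androstane receptor), -0.19 for Ahr and -0.32 for Ppara, and under the slide block -0.13 for Nr1i2, -1.48 for Nr1i3, -0.63 for Ahr and -0.14 for Ppara.

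Targets of the same receptors outside the P450s gave few calls in this comparison. Of 15 PPAR alpha targets all 15 values were below 0 (median -0.33) and 2 fell, among them the carnitine carrier Slc25a20 at -0.35. With the slide as a block 12 of the 15 were below 0 and the median was -0.18. Of 11 targets of the androstane and pregnane X receptors 1 rose, Gadd45b at 0.79 (0.50 under the slide block), and of 4 aryl hydrocarbon receptor targets none passed. Of 11 regulators of growth hormone signalling and sex pattern 1 rose, the kinase Jak2 at 0.36 (0.08 under the slide block). The background for all of these is the 18.4% higher and 2.48% lower given above.

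Markers of other cells were read in AdCu30 against AdCu10 rats, and the slide block turned the sign of several. Over all genes tested 18.4% were higher and 2.48% lower, and 35.5% were higher among the 6214 of lowest mean signal. Acute phase genes counted 3 of 11 higher, with a median difference of 0.80, or 0.49 with the block. Red blood cell markers counted 2 of 5 higher, with a median of 1.31, or 1.66 with the block. Lists whose median turned were Kupffer cell and macrophage markers (1 of 7 higher, 0.45 without and -0.37 with the block), T, B and NK cell markers (3 of 8, 0.55 and -0.27), stellate cell markers (1 of 7, 0.05 and -0.24) and endothelial markers (1 of 5, 0.08 and -0.58). Cholangiocyte markers had none of 6 past the threshold (-0.02 and -0.08), as had the 9 hepatocyte markers (0.01 and 0.14). Of 7 perivenous hepatocyte markers 1 rose and 1 fell (-0.25 and -0.90), and of 7 periportal markers 2 fell (-0.37 and -0.09). Their part in the P450 values was not tested.

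The 15 tested genes of P450 families above 4, which serve bile acid, steroid and vitamin metabolism, had a median of 0.25 in AdCu30 against AdCu10 rats, where families 1 to 4 had -0.24. In the interaction their median was -0.54, where families 1 to 4 had 0.30. The difference between the families was not tested. Several probes were kept for 12 of the 52 genes. Their probes had 1 sign in 12 genes for AdCu30 and LowCu10 against AdCu10, in 11 for LowCu30 against AdCu10 or AdCu30 and for the interaction, and in 9 for LowCu30 against LowCu10. Calls agreed less in AdCu30 against AdCu10, with adjustment over all probes. Both probes of Cyp2b12 and Cyp2c79 passed. The second probes of Cyp2b2 and Cyp2d4 did not (limma adjusted p = 0.27 and 0.16), while 1 probe of Cyp2s1, a gene not called, did (limma adjusted p = 0.022).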

How the data were processed

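Liver RNA of 24 rats was measured on one-colour arrays. Spots were read with Agilent Feature Extraction 10.7.3.1 (protocol GE1_107_Sep09), per the file headers. Among the deposited columns, the processed intensity of a spot comes after background subtraction and detrending within its array and is not scaled between arrays. Mean, local background and background-subtracted signals were deposited as intensity too, per the file headers. The authors' series table holds a score whose scaling is not given in the sources used here. The deposited spot marks (above background, saturated, outlier) are of another kind and were used as marks only.

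The processed intensity was put on a log2 scale minus each array's 75th percentile, without control spots (4259 of 62976) and marked spots (0.652%), and averaged per probe. Probes above background on at least 6 arrays were kept (21179), and the brightest kept probe stood for each gene, which gave 18641 genes. limma 3.58.1 in R 4.3.3 fitted a mean per diet over all arrays, with Benjamini-Hochberg adjustment over all genes of each of 6 comparisons at 0.05. The number of arrays limits the precision. Named genes were the 15 largest rises and falls past the threshold per comparison, or the 3 smallest p where fewer than 3 passed, with the 4 brightest per family and 42 listed P450 genes (35 tested). The members and lists were chosen with earlier results of these data known. Symbols were matched to RefSeq for 51 of 59 members, and 1 had changed. Rats with the same number in different diets did not pair, with correlations of -0.29 to 0.36 over 36 pairs, 12 of them over 0.1. The fitting was tested on simulated data. A listed gene is not reported here. Alternatives are given in the closing section.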

Additional observations from a re-analysis of the deposited data

Results flagged for a closer look

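Of 208 groups of 6 rats (52 P450 genes in 4 diets), 16 held a rat whose gap to the nearest rat exceeded Dixon's 95% value, and chance gives about 1 in 20. Of the 16, 5 came from LowCu10 rat 2, which was low in Cyp2c11 (6.96, the nearest rat at 7.85), Cyp2d3 (1.71, nearest 2.51), Cyp2d4 (2.45, nearest 3.15), Cyp3a23/3a1 (3.39, nearest 4.42) and Cyp4v3 (-0.45, nearest 0.13). AdCu30 rat 5 was low in Cyp3a23/3a1 (3.22, nearest 4.68). Acute phase means of 5.60 and 6.25 went with these rats, and their part was not tested.

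Other rats stood apart in single genes. Cyp4v3, a fatty acid hydroxylase, was also low in LowCu30 rat 1 (-0.80) and AdCu10 rat 2 (-0.93). Cyp3a23/3a1 was low in AdCu10 rat 6 (4.26), which was low in Cyp4f5 too (-2.63). LowCu30 rat 4 was high in Cyp2a1 (3.87), LowCu10 rat 4 was high in Cyp2b2 (2.46) and LowCu10 rat 5 was low in Cyp2b3 (7.10). AdCu30 rat 1 was low in Cyp4b1 (-3.85), AdCu10 rat 1 was low in Cyp4f17 (-2.33) and AdCu10 rat 5 was high in Cyp2c79 (-2.83).

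The effect of low copper differed between 30% and 10% sucrose in 11 of 52 genes, beside 20.8% of all genes tested, by limma's interaction term. It was 1.46 for Cyp3a9, 1.14 for Cyp3a18, 0.99 for Cyp2u1, 0.93 for Cyp2d3, 0.66 for Cyp2d4 and 0.49 for Cyp4f4. It was -1.63 for Cyp2b12, -1.50 for Cyp2w1, -1.29 for Cyp2c79, -1.25 for Cyp4f18 and -0.97 for Cyp2b15. None passed with the slide as a block.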

How the results depend on the processing

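Counts of P450 genes past the threshold are given here beside 11 of 52 (AdCu30 against AdCu10), 6 (LowCu10 against AdCu10), 2 (LowCu30 against AdCu10) and 11 (interaction). LowCu30 against AdCu30 and LowCu30 against LowCu10 gave 0 under every alternative run. A fixed slide block made all 4 counts 0, alone or with quantile normalization, and LowCu10 against AdCu10 gave 0 within slide 3. Under a random slide block they were 4, 3, 0 and 4. Quantile normalization gave 8, 2, 0 and 6, the values of the authors 9, 2, 0 and 5, normexp correction 12, 6, 0 and 10, no filter 9, 5, 1 and 8, and a filter on all arrays, with 48 genes, 8, 3, 0 and 7. Array weights gave 15, 8, 4 and 14. Leaving out AdCu30 rat 5 and LowCu10 rat 2, chosen after seeing the data, gave 8, 4, 2 and 5. The cause of these shifts was not tested. These counts stand without the counts over all genes, so they do not show whether a shift is particular to P450 genes. Over leaving out 1 rat at a time the counts ran from 6 to 15 for AdCu30 and from 4 to 7 for LowCu10 against AdCu10, from 0 to 2 for LowCu30 against AdCu10 and from 7 to 14 for the interaction. In the same omissions the counts over all 18641 genes ran from 2933 to 4104, 2599 to 4264, 0 to 986 and 3054 to 4828, in that order. Of the 30 calls, 16 passed in each of these omissions.

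Among the 30 calls and their alternatives, signs turned in 4 cases. Cyp2c79 in AdCu30 against AdCu10 was -0.13 with the slide as a block and -0.16 with quantile normalization as well, and in LowCu10 against AdCu10 it was -0.0085 with both. The interaction of Cyp2u1 was -0.091 with normexp correction. Over all P450 genes, past the threshold or not, the sign differed with the slide as a block in 9 of 52 genes for AdCu30, 9 for LowCu10 and 14 for LowCu30 against AdCu10, 20 for LowCu30 against AdCu30, 23 for LowCu30 against LowCu10 and 12 for the interaction.

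The replicate numbers did not pair the rats. A replicate block gave 9, 5, 2 and 8. The mean of probes, every probe separately, only the diets compared and an intensity trend left each count within 1.5 times. Dim members (Cyp2u1, Cyp1a1) are limited by signal over background.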
